A study of Mus musculus with 16 samples.

Results

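The heat shock proteins and small chaperones named here were Hspa1a, Hspa1b, Hspa8, Hsph1, Dnajb1, Hspd1, Hspb1, Hspb6, Hspb8 and Cryab, 10 genes in all. Their probes were found by the gene name in the array files among probes that are not controls. This gave 16 probes of 8 genes, out of 41174 probes with 27745 gene names. No probe carried the name Hspa1b, and Hsph1 was on the array under its older symbol Hsp110, from which 1 probe was added through its accession, so that 9 genes were followed with 17 probes. Of the 4 Hspa1a probes, 2 also list the accession of Hspa1b, so these 2 genes could not be separated on them. Signal of at least 2 times background in both channels was found for 16 of the 17 probes. The remaining probe, dim and named Hspb1, is placed on chromosome 13 and not at the Hspb1 locus on chromosome 5, and it was not used.

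Expression was measured in gastrocnemius, a calf muscle, of 16 male C57BL/6N mice, with 1 array per mouse. From an age of 3 months and for 8 weeks, both groups ate a high-fat diet based on corn oil (cHF) to which rosiglitazone, a drug that activates the nuclear receptor PPARγ, had been added at 10 mg per kg. In the 8 cHF+F+ROSI mice, but not in the 8 cHF+ROSI mice, an n-3 LC-PUFA concentrate took the place of 15% of the dietary lipids. All mice were fasted for 10 hours in the light, given Chow overnight, and killed the next morning under pentobarbital anesthesia by cervical dislocation. Rosiglitazone and the switch to Chow were thus common to both groups. Each value is the log2 ratio of the Cy5 signal of a mouse to the Cy3 signal of a reference pool that was the same on all arrays, and a value of 0 means the level of the pool. The mice were caged in pairs, 2 per cage, but the labels do not tie a mouse to a cage, so each mouse was taken as a separate sample. The 16 arrays lay on 4 slides, with 2 mice of each group per slide, and the position on the slide was fixed by group, so position and diet cannot be told apart.

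Heat shock proteins keep other proteins folded. Hspa1a and Hspa1b encode the stress-inducible Hsp70, Hspa8 its constitutive relative, Dnajb1 an Hsp40 that delivers substrates to Hsp70, and Hsph1 an Hsp110 that exchanges its nucleotide. Hspd1 encodes the Hsp60 chaperonin of mitochondria. Hspb1, Hspb6, Hspb8 and Cryab encode small heat shock proteins, which hold unfolding proteins without using ATP and are abundant in muscle, where they bind sarcomere and cytoskeleton proteins. The inducible members are switched on by heat shock factor 1, which binds inverted repeats of the pentamer NGAAN after heat, exercise, injury or other stress.

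The stretches before the gene starts are shown because heat shock factor 1 binds these repeats there. In the 250 bases before each annotated start (RefSeq, GRCm38.p6), 3 joined units were sought as TTCNNGAANNTTC or GAANNTTCNNGAA and 2 joined units as TTCNNGAA or GAANNTTC. Each of these motifs was read on both strands, and every match to 3 units also holds matches to 2. Only exact letters were counted, so units with a mismatched base were not found. A lack of matches therefore does not show a lack of binding sites. A window was available for 8 of the 10 genes, not for Hspa8 and Cryab. Capitals mark the matching letters in the sequences, which run 5′ to 3′ toward the start. Hspa1a lies on the minus strand with its window at chr17:34972157-34972406, Hspa1b on the minus strand at chr17:34959239-34959488, Hspd1 on the minus strand at chr1:55087933-55088182 and Hspb1 on the plus strand at chr5:135887669-135887918.
Hspa1a: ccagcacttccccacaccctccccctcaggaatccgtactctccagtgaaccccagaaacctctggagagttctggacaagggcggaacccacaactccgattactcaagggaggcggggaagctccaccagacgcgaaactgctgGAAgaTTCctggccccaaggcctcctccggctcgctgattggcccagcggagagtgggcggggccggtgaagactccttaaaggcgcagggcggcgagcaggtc
Hspa1b: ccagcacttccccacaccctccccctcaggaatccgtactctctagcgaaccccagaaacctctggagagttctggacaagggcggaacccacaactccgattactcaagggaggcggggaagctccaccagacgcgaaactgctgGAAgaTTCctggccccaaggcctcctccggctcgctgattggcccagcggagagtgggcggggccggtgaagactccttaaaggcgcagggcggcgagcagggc
Hspd1: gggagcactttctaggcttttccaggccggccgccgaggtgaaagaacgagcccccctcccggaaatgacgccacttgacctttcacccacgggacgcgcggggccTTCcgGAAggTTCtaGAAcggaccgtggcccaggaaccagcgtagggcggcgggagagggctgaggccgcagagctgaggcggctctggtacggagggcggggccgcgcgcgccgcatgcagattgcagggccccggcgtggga
Hspb1: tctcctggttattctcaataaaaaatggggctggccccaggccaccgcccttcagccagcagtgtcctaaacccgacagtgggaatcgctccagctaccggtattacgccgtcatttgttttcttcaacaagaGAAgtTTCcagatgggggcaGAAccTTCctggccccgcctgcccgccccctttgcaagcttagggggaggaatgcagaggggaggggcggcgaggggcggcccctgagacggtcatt
The windows of Hspa1a and Hspa1b share 247 of 250 bases, although the windows start 12918 bases apart, and both hold a single match to 2 units. Hspd1 was the only one of the 8 with an exact match to 3 joined units. Its 2 overlapping matches run from 144 to 127 bases before the start, and 3-unit matches were found in 153 of 32851 windows of all genes, or 0.466%. A 2-unit match was found in 6 of the 8 (Hspa1a, Hspa1b, Hsph1, Hspd1, Hspb1 and Hspb6), against 14.5% of all genes with a window. Dnajb1 and Hspb8 had none of these exact matches in their windows.

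The muscle of every mouse gave a strong signal for 6 skeletal muscle markers (Acta1, Ckm, Mb, Myh4, Pvalb and Tnnt3), with Cy5 signals from 150100 to 653400. Acta1, Myh4 and Tnnt3 had the same highest signal, 653400, and whether this was the upper limit of the scan was not tested. Over all probes, the median of signal over background per array was 2.33 to 3.64 for Cy5 and 1.78 to 2.02 for Cy3. In 1 mouse, cHF+F+ROSI replicate 2, several heat shock genes lay far above all others. Its array had a median Cy5 signal over background of 2.98, the lowest of the 8 cHF+F+ROSI arrays and the second lowest of all 16, and the largest median absolute log2 ratio of the 16 (0.279). What part these array measures had in its values was not tested. In the same mouse the mean ratio of 9 slow fibre genes was -2.12, where the next lowest of its group had -0.55, and the mean of 10 immediate early genes was 1.23, where the next highest had 0.09. The members' main results are therefore given with and without this mouse. Since it was singled out by high values of some members, leaving it out lowers their cHF+F+ROSI means. The p-values of these members without it are not independent of that choice. These measurements are of whole muscle, in which fewer cells of a type and less RNA per cell cannot be told apart.

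Hspa1a varied most between mice among the 9 genes. By its brightest probe (chromosome 17, 34577877 to 34577936, minus strand, NCBI build 36, as are all probe positions given here), its log2 ratios ran from -0.74 to 1.47 among the cHF+ROSI mice, with a median of 0.72. In the cHF+F+ROSI mice they ran from -1.57 to 3.85, with a median of -0.77. The groups overlapped, since replicate 2 was the highest of all 16 mice while 5 of its group lay below the lowest cHF+ROSI mouse. The level in replicate 2 was 10.2 times that of the next highest mouse of its group, and the highest and the lowest of the 16 mice differed 42.8-fold. The within-group SD of Hspa1a was 1.40 on the log2 scale, which was exceeded by only 11 of 19398 probes, whose median SD was 0.13.

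The mean of Hspa1a was 0.51 ± 0.79 (SD, n = 8) with cHF+ROSI and -0.23 ± 1.82 (SD, n = 8) with cHF+F+ROSI. The difference of -0.74 had a 95% interval from -2.05 to 0.57 and did not pass limma (p = 0.25, adjusted p = 0.702), nor the exact two-sided permutation test (p = 0.32). Without replicate 2 the remaining 7 cHF+F+ROSI mice had a mean of -0.82 ± 0.82 (SD), all below the mean of the cHF+ROSI mice. The difference was then -1.32, or 0.40 times the cHF+ROSI level, with an interval from -2.10 to -0.55 (limma p = 0.00227, adjusted p = 0.20, exact permutation p = 0.0101). Thus the call before adjustment was decided by 1 mouse, and no adjusted p passed in either set. By slide the difference was 0.44 on slide 1, which held replicate 2, and -1.82, -2.17 and 0.59 on slides 2, 3 and 4, so its sign was not the same on all slides even where replicate 2 was absent.

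The other Hspa1a probes followed the same mice. Over the 4 probes, within-group r between probes lay between 0.94 and 1.00. The probe that shares Hspa1b and lies nearest to the gene start (A_52_P304902, 34579637 to 34579696) had a smaller range, from -0.41 to 0.56 among the cHF+ROSI mice and from -0.59 to 1.38 among the cHF+F+ROSI mice, at a Cy5 signal of 5.15 times background. Its diet difference was -0.17 with all mice and -0.38 without replicate 2. The other probe shared with Hspa1b had -0.83 with all mice (limma p = 0.0672, exact permutation p = 0.105), the smallest limma p of the member probes, and -1.19 without replicate 2.

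Dnajb1 showed the second widest spread. Its brightest probe (chromosome 8, 86501866 to 86501925, plus strand) gave log2 ratios from -0.71 to 1.23 among the cHF+ROSI mice, with a median of 0.11, and from -1.16 to 2.35 among the cHF+F+ROSI mice, with a median of -0.62. Replicate 2 was again the highest mouse, 4.72 times the next of its group, and only 53 probes of the array had a larger within-group SD. The means were 0.24 ± 0.69 (SD, n = 8) and -0.23 ± 1.101 (SD, n = 8), and the difference of -0.47 had an interval from -1.33 to 0.39. It did not pass limma (adjusted p = 0.712) or the exact permutation test (p = 0.332). Without replicate 2 it was -0.84, with an interval from -1.39 to -0.29 (limma p = 0.00512, adjusted p = 0.244, exact permutation p = 0.0151), and all 7 remaining mice lay below the cHF+ROSI mean. The second, dimmer probe correlated with the first at r = 0.98. Its difference was -0.21, with an interval from -0.70 to 0.27 (limma p = 0.368, exact permutation p = 0.454), and -0.44 without replicate 2. On this probe 6 of the 8 cHF+F+ROSI mice lay below the lowest cHF+ROSI mouse, while replicate 2 was the highest of all mice.

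Hsph1 and Hspa8, the Hsp110 and the constitutive Hsp70, moved little with diet. The log2 ratios of Hsph1 ran from -0.46 to 0.52 (median -0.11) among the cHF+ROSI mice and from -0.34 to 0.41 (median -0.07) among the cHF+F+ROSI mice, so the groups lay almost on top of each other. Its difference was 0.071, with an interval from -0.21 to 0.36. Hspa8 ran from -0.36 to 0.18 (median -0.07) and from -0.51 to 0.17 (median -0.20) in the same order of groups, with a difference of -0.098 and an interval from -0.30 to 0.11. In replicate 2, Hspa8 was at -0.45, the second lowest of its group, while Hspa1a was at its highest. The second Hspa8 probe had a difference of -0.03. On that probe cHF+ROSI replicate 1 was the lowest of all mice, at -0.90. Without that mouse the difference was -0.13, with an interval from -0.32 to 0.05 (adjusted p = 0.673 in limma), and that of the brightest probe was -0.14.

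Hspd1, the mitochondrial chaperonin, was the steadiest member when each gene was taken by its brightest probe. By its brightest probe (chromosome 1, 55022530 to 55022589, minus strand) the ratios ran from -0.28 to 0.03 (median -0.13) among the cHF+ROSI mice and from -0.26 to 0.05 (median -0.04) among the cHF+F+ROSI mice, a 1.26-fold range over all 16 mice. Its within-group SD of 0.10 lay at the 18.2nd percentile of all probes. The difference was 0.053, with an interval from -0.06 to 0.16. The second probe was higher in the cHF+F+ROSI mice by 0.17, with an interval from -0.02 to 0.35 (limma p = 0.0711, exact permutation p = 0.06), and every one of its 8 values with cHF+F+ROSI exceeded the mean with cHF+ROSI. On this probe cHF+ROSI replicate 1, whose array was the dimmest of the 16, was at -0.23, while the other 7 cHF+ROSI mice lay between 0.23 and 0.57. Without that mouse the difference was 0.089, with an interval from -0.03 to 0.20 (adjusted p = 0.642 in limma). The 2 Hspd1 probes correlated at r = 0.39, and the second had a within-group SD of 0.18. The main statements on how Hspd1 varied across mice rest on the brightest probe.

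Of the small heat shock proteins, Hspb1 varied most. Its log2 ratios (chromosome 5, 136173684 to 136173871, plus strand) ran from -0.34 to 0.79 (median 0.20) among the cHF+ROSI mice and from -0.46 to 0.82 (median -0.10) among the cHF+F+ROSI mice, with replicate 2 highest. The means were 0.20 ± 0.39 and -0.05 ± 0.41 (SD, n = 8 each). The difference of -0.25 had an interval from -0.63 to 0.13, and without replicate 2 it was -0.38 with an interval from -0.70 to -0.06 (limma p = 0.024, adjusted p = 0.406, exact permutation p = 0.0457). By slide it was -0.01, -0.69, -0.47 and 0.15 on slides 1 to 4.

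Hspb6, Hspb8 and Cryab did not differ between the diets beyond their spread. Hspb6 ran from -0.12 to 0.43 among the cHF+ROSI mice (median 0.20) and from -0.23 to 0.49 among the cHF+F+ROSI mice (median 0.25), a difference of 0.046 with an interval from -0.16 to 0.25. Hspb8 ran from -0.59 to -0.08 (median -0.31) and from -0.55 to 0.24 (median -0.39), a difference of 0.016 with an interval from -0.20 to 0.23. Replicate 2 was alone above 0 for Hspb8, and without it the difference was -0.06. Cryab, by its brightest probe, ran from -0.64 to 0.39 (median 0.00) and from -0.37 to 0.37 (median -0.23), a difference of -0.12 with an interval from -0.38 to 0.14. Its second probe had a difference of 0.03 and did not follow the first across mice (r = 0.03), so statements on how Cryab varied rest on 1 probe.

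**Figure D1:**
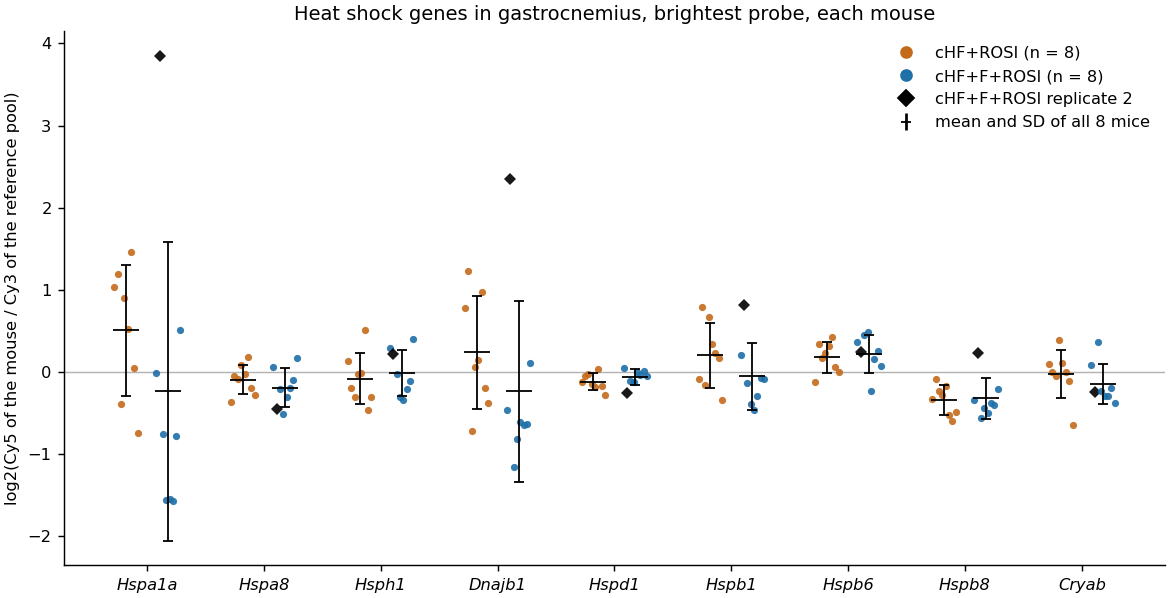
Log2 ratio of Cy5 to the Cy3 reference pool (y axis) for the brightest probe of each of 9 heat shock genes (x axis), with a point per mouse, 8 per group, and bars for the mean and SD of all 8 mice. The diamond is cHF+F+ROSI replicate 2, which stands at 3.85 for Hspa1a and 2.35 for Dnajb1 but inside its group for Hsph1, Hspb6 and Cryab.

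Over all 16 member probes, 0 had an adjusted p under 0.05 in limma, where 0.0876% of all 19398 probes did, and 0 had an unadjusted p at or under 0.05, where 10.4% of all probes did. The exact permutation test on the same values also gave 0, and that on ranks gave 3 of 16 (the 2 brightest Hspa1a probes, p = 0.0499, and the second Dnajb1 probe, p = 0.0379), where 11% of all probes were called by the same test. The median difference of the member probes was -0.11, against 0.00 over all probes, and 10 of 16 were negative, against 49.3% of all probes. These probes repeat some genes. By the brightest probe of each gene, 5 of 9 were negative (55.6%), with a median of -0.098. Without replicate 2, 7 of the 16 had an unadjusted p at or under 0.05 and all 7 were lower with cHF+F+ROSI, where 4.96% of all probes were. These 7 were the 4 probes of Hspa1a, the 2 of Dnajb1 and that of Hspb1, so they stand for 3 genes. None had an adjusted p under 0.05, where 0.124% of all probes did. Replicate 2 was the highest cHF+F+ROSI mouse on all 7, and such high values were why it was left out. The share of all probes is therefore not a like background for this count. Down-weighting arrays by their fit, with all 16 kept, gave 8 of 16 with an unadjusted p at or under 0.05, where 13% of all probes had one. Of these 8, 7 were lower, from the same 3 genes, and the second Hspd1 probe was higher. The weights were estimated from these same arrays, and the weight of replicate 2 is not given. This count is therefore not separate support for the count without that mouse.

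Markers of other cells in the muscle were compared over the same mice. Of 5 endothelial markers, 4 were lower with cHF+F+ROSI at an unadjusted p at or under 0.05 (Cdh5, Kdr, Pecam1 and Tek), where 4.99% of all probes were. The fifth, Vwf, had a difference of 0.21 in the other direction. The median over the 5 was -0.14, none passed adjustment, and without replicate 2 the count was 3. Their mean ratio ran from -0.30 to 0.07 among the cHF+ROSI mice and from -0.30 to 0.04 among the cHF+F+ROSI mice. Of 6 adipocyte, 6 macrophage, 5 fibroblast, 3 red blood cell and 6 skeletal muscle markers, 0 differed at that p in limma. Acta1, Myh4 and Tnnt3 shared the same highest Cy5 signal, so a difference at that level may have been missed. The mean endothelial ratio correlated with Hspa1a at r = 0.34 over 16 mice and at 0.17 without replicate 2, given as a description, and its part in the diet difference was not tested.

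**Figure D2:**
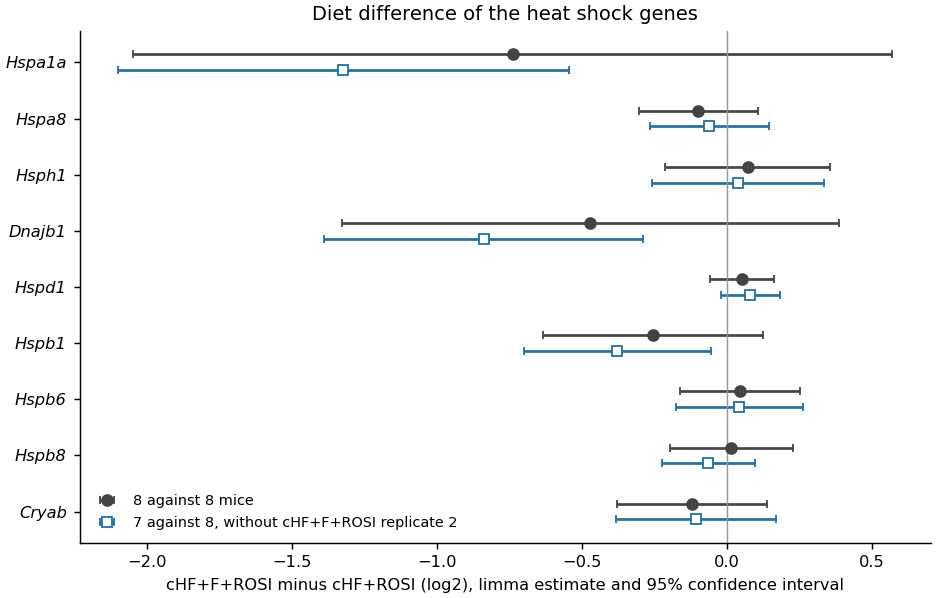
Difference of cHF+F+ROSI from cHF+ROSI in log2 units (x axis) for the brightest probe of each gene (y axis), with the limma estimate and its 95% interval for 8 against 8 mice (filled circles) and for 7 against 8 without cHF+F+ROSI replicate 2 (open squares). Only the intervals of Hspa1a, Dnajb1 and Hspb1 without that mouse exclude 0, at -1.32, -0.84 and -0.38.

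Across mice within the groups, Dnajb1 and Hspb1 followed Hspa1a. Relations were computed over the 16 mice after the group mean was removed, 80 in all, of which 36 were pairs of members. Each was tested by 100000 permutations of the mice within groups, which cannot give a p below 1e-05, and in limma, where every other probe was fitted on a member with the group as a term and p was adjusted over all of these probes. Hspa1a and Dnajb1 had Pearson r = 0.92 (permutation p = 5e-05) and Spearman rho = 0.82 (permutation p = 8e-05), with an adjusted p of 9.8e-05 in limma with Hspa1a as the anchor. With slide also removed r was 0.90, without the 2 mice farthest from the median of Hspa1a it was 0.80, and without replicate 2 it was 0.77 (permutation p = 0.00093), where the adjusted p in limma was 0.242 and the call was lost. Taken by group, r was 0.89 in the cHF+ROSI and 0.95 in the cHF+F+ROSI mice. The latter value includes replicate 2, the highest mouse for both genes, and r in that group without it was not computed.

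Hspa1a and Hspb1 had r = 0.82 and rho = 0.74 (permutation p = 0.00045 and 0.00099, adjusted p in limma 0.0159), r = 0.77 with slide removed, and 0.70 without the 2 farthest mice. Without replicate 2, r was 0.69 and the adjusted p 0.438. Hspa1a and Hspb8 had r = 0.75 and rho = 0.46 (permutation p = 0.0114 and 0.0708, adjusted p in limma 0.0485). With slide removed r of this pair was 0.72. It rested on replicate 2, for r fell to 0.37 without this mouse (permutation p = 0.181) and to 0.40 without the 2 farthest. These were the 3 pairs of 36 with an adjusted p under 0.05 with at least 1 of the pair as the anchor. With Hspb8 as the anchor, its pair with Hspa1a had 0.102, whereas the pairs of Hspa1a with Dnajb1 and Hspb1 also passed with these as anchors (0.000208 and 0.0303). All include Hspa1a, and with it as the anchor 1.29% of all probes passed adjustment and 17.2% had an unadjusted p at or under 0.05. With the other members as anchors the share of all probes past adjustment was 0.0206% for Hspa8, 0.361% for Hsph1, 0.144% for Dnajb1, 0.0928% for Hspb1, 0.0722% for Hspb8 and 0% for Hspd1, Hspb6 and Cryab.

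Hsph1 followed Hspa1a with and without replicate 2, though not in the Cy5 signal alone, whereas the r of Hspa8 depended on this mouse. For Hspa1a and Hsph1, r was 0.65 and rho 0.77 (permutation p = 0.00168 and 0.00058), with an adjusted p of 0.102 in limma. In the 15 mice without replicate 2, r was 0.85, and with Hsph1 as the anchor this was the only pair of members with an adjusted p under 0.05 (0.0145, at a background of 0.412%, where the share was 0.00516% for Hspa8, Hspb1 and Cryab and 0% for the other 5 anchors), although with Hspa1a as the anchor the adjusted p was 0.235. Over all 16 mice, r was 0.65 with slide removed but 0.18 with the Cy5 signal alone (adjusted p in limma 0.774). For Hspa1a and Hspa8, r was 0.07 and rho 0.39 over 16 mice (permutation p = 0.838 and 0.154), 0.28 with slide removed, and 0.71 (permutation p = 0.00576) in the other 15 mice, where the adjusted p was 0.446. In replicate 2 Hspa8 was low and Hspa1a high, which is the opposite of the pattern in the other mice.

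**Figure D3:**
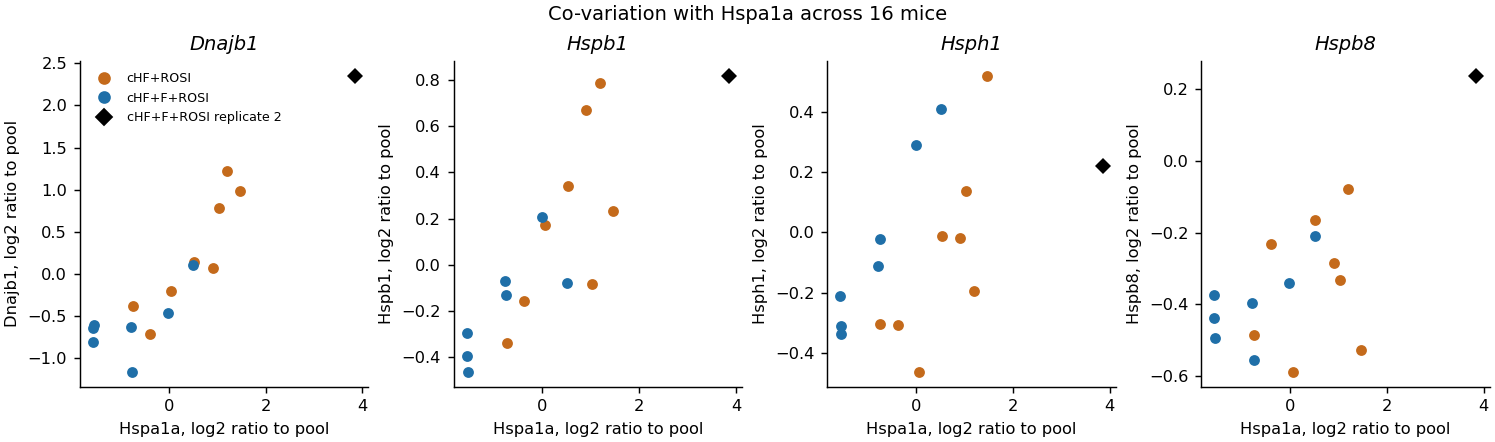
Log2 ratio to the reference pool of Dnajb1, Hspb1, Hsph1 and Hspb8 (y axes, a panel each) against that of Hspa1a (x axis) in 16 mice, colored by group, with cHF+F+ROSI replicate 2 as a diamond. Dnajb1 and Hspb1 rise with Hspa1a also among the other 15 mice (r = 0.77 and 0.69), while Hspb8 does so less (r = 0.37).

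Hspd1, Hspb6 and Cryab followed Hspa1a less closely. Hspa1a had r = -0.27 with Hspd1, 0.17 with Hspb6 and 0.16 with Cryab over 16 mice, with permutation p of 0.321, 0.554 and 0.542, and adjusted p in limma between 0.681 and 0.80. With slide removed these were -0.15, 0.15 and 0.04. Without replicate 2 they were 0.47, 0.27 and 0.44, so the sign of the relation with Hspd1 turned. Without the 2 farthest mice they were 0.48, 0.25 and 0.41. Hspb1 had r = 0.39 with Cryab and 0.41 with Hspb6 over 16 mice (permutation p = 0.145 and 0.131). Without replicate 2 its r were 0.58 and 0.50 (permutation p = 0.0256 and 0.0491). Neither pair had an adjusted p under 0.05 in limma with or without that mouse. Hspd1 followed Hspa8 most closely of the members, at r = 0.60 and rho = 0.58 (permutation p = 0.0171 and 0.0245, adjusted p in limma 0.315 and 0.373). That r was 0.62 with slide removed, 0.51 without the 2 farthest mice and 0.52 without replicate 2. Of all 36 pairs, 28 had r above 0 with all mice and 36 without replicate 2, and the median r was 0.26 and 0.38. The pairs share arrays and mice and are not independent.

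**Figure D4:**
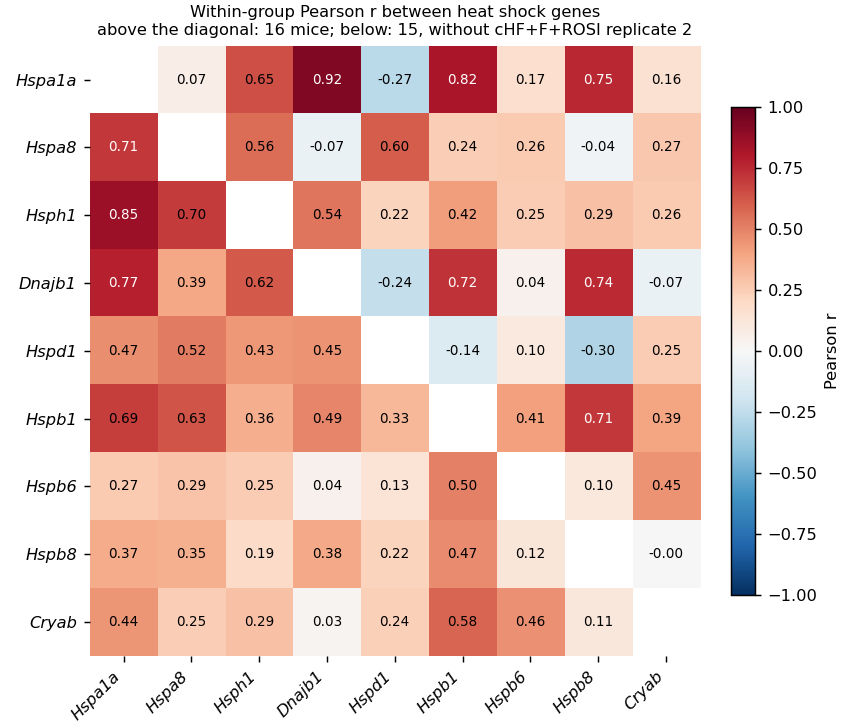
Pearson r between the log2 ratios of 9 heat shock genes after the group mean was removed, over 16 mice above the diagonal and over 15 mice, without cHF+F+ROSI replicate 2, below it, with color from -1 (blue) to 1 (red). Hspa1a has high r with Dnajb1 and Hspb1 on both sides of the diagonal, while Dnajb1 and Hspb1 have 0.72 above and 0.49 below it, and all values below the diagonal are above 0.

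The genes outside the members that followed Hspa1a most closely over 16 mice were Srxn1, Jund, Abra, Nle1 and Atf3. They had r of 0.94, 0.94, 0.94, 0.91 and 0.90, with rho from 0.78 to 0.87 and adjusted p in limma from 8.5e-05 to 0.00169. Srxn1 encodes sulfiredoxin, which repairs oxidized peroxiredoxins. Jund and Atf3 encode AP-1 family and stress transcription factors, and Abra encodes a muscle protein that binds actin and activates serum response factor. Without replicate 2 their r were 0.81, 0.79, 0.80, 0.83 and 0.71. Of 19394 probes, 250 (1.29%) had an adjusted p under 0.05 with all mice and 0 without replicate 2, when 1457 (7.51%) still had an unadjusted p at or under 0.05. The 5 closest genes without this mouse were Nfatc4, Nle1, Rngtt, Hsp90aa1 and Srxn1, with r from 0.81 to 0.87 and adjusted p from 0.242 to 0.279, so Nle1 and Srxn1 were in both sets of 5.

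For Hspd1 the closest genes were Eya3, Slc35e2, Prrc2a, Adgra3 and Plod1, with r from 0.80 to 0.85. None had an adjusted p under 0.05 (0.221 to 0.246), and 0 of all probes did, against 10.9% with an unadjusted p at or under 0.05. For Cryab they were Lmcd1, Myl12a, Myh3, Fhl2 and Impa2, with r from 0.80 to 0.85 and adjusted p from 0.11 to 0.37. Lmcd1 and Fhl2 encode LIM-domain proteins of striated muscle, Myl12a a regulatory myosin light chain and Myh3 the embryonic myosin heavy chain. With Cryab as the anchor 0 probes passed adjustment and 3.72% had an unadjusted p at or under 0.05. Without replicate 2 the closest was Myom3, which encodes an M-band protein (r = 0.93, adjusted p = 0.00246), and it was the only probe of 19396 past adjustment (0.00516%). It was not among the 5 closest genes when all mice were used, where its r was 0.69.

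Stress-related gene groups moved with some of the members. The mean of 10 immediate early genes, which are switched on within minutes of a stimulus, correlated with Dnajb1 at r = 0.84 and rho = 0.64 (permutation p = 0.00273 and 0.0139, adjusted p in limma 0.011, at a background of 0.165% of all probes with this mean as the anchor). With slide removed r was 0.94. It was 0.43 without the 2 farthest mice and 0.63 without replicate 2, where the adjusted p was 0.997 and the background 0%. With Hspa1a, r was 0.78 and rho 0.61 (permutation p = 0.0048 and 0.0125, adjusted p 0.0506), 0.81 with slide removed and 0.42 without the 2 farthest mice. Without replicate 2 that r was 0.46 (permutation p = 0.0915, adjusted p in limma 0.997). This list includes Atf3, named above among the genes closest to Hspa1a.

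The mean of the cold-inducible RNA-binding proteins Cirbp and Rbm3, which rise when temperature falls, had a negative r with all 9 members over 16 mice, from -0.05 for Cryab to -0.71 for Hsph1. For Hsph1, r was -0.71 and rho -0.57 (permutation p = 0.00432 and 0.0305, adjusted p in limma 0.139). With slide removed it was -0.75, without the 2 farthest mice -0.35 and without replicate 2 -0.73. With Hspa8, r was -0.65 and rho -0.52 (permutation p = 0.00917 and 0.0535, adjusted p 0.217), -0.62 with slide removed and -0.69 both without the 2 farthest mice and without replicate 2. With Hspa1a, r was -0.36 and rho -0.61 (permutation p = 0.197 and 0.0161, adjusted p 0.553), -0.51 with slide removed, -0.67 without the 2 farthest mice and -0.70 without replicate 2. Hspb6 and Hspb1 had r of -0.46 and -0.31 and rho of -0.62 and -0.57 (permutation p of rho 0.0164 and 0.0276). None of the 9 passed the adjustment over all probes, of which 0.0412% did with this mean as the anchor and 0.098% without replicate 2. The pair did not differ by diet, with 0.0031 for Cirbp and 0.070 for Rbm3 (adjusted p = 0.997 and 0.885).

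Hspd1 followed the mean of 9 slow fibre genes (Myh7, Myl2, Myl3, Tnnc1, Tnni1, Tnnt1, Tpm3, Atp2a2 and Casq2), at r = 0.73 and rho = 0.65 (permutation p = 0.00395 and 0.01, adjusted p in limma 0.115, at a background of 1.72% of all probes, or 0.0361% without replicate 2). Slow fibres hold more mitochondria than fast fibres. With slide removed r was 0.70, without the 2 farthest mice 0.30 and without replicate 2 0.56 (permutation p = 0.0584), so part of the relation rested on few mice. It was computed on the brightest Hspd1 probe alone, which the second probe followed only at r = 0.39. The slow fibre mean ran from -1.20 to 0.66 in the cHF+ROSI and from -2.12 to 0.31 among the cHF+F+ROSI mice. For Hspa1a the same mean gave r = -0.53 and rho = -0.19 (permutation p = 0.094 and 0.46, adjusted p 0.194), -0.51 with slide removed, 0.15 without the 2 farthest mice and 0.17 without replicate 2. For the mean of 10 clock genes, r with the 9 members lay between -0.35 and 0.18.

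The rest of the chaperone network was followed with 75 genes in 8 lists, of which 72 were measured. An unadjusted p at or under 0.05 was found for 6 of the 72, or 8.33%, against 10.4% of all probes. All 6 were lower with cHF+F+ROSI, as were 4.99% of all probes. Without replicate 2, 7 of the 72 were lower at that p and 1 was higher, Hspa9 (0.11), a name taken after its value was seen. Of all probes, 4.96% were then lower at that p, and 10.4% passed it in either direction. The median difference of the 72 was -0.03, and 43 were negative. Values below 0 were most frequent among the other Hsp40 cochaperones, 9 of 11, and the chaperones of the endoplasmic reticulum, 10 of 13, but their medians were -0.09 and -0.08 and 1 and 0 of their genes passed the unadjusted p. No gene of the 4 heat shock factors and regulators or of the 8 Hsp70 exchange and ubiquitin partners did, with Hsf1 at -0.0099 and Bag3, which couples Hsp70 to small heat shock proteins, at -0.072 (adjusted p = 0.965 and 0.847) by their brightest probes. The second Bag3 probe differed by -0.21 (adjusted p = 0.424) and had an unadjusted p of 0.0298 in limma, so the probes of Bag3 were not alike on this point.

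Hspa1l, a neighbour and close relative of Hspa1a in the major histocompatibility complex that is known for its role in the testis, was the only chaperone with an adjusted p under 0.05, at a background of 0.0876%. Its log2 ratios (chromosome 17, 34586740 to 34586799) ran from -0.31 to 0.26 among the cHF+ROSI mice (median -0.02) and from -0.69 to -0.28 among the cHF+F+ROSI mice (median -0.54). All 8 cHF+F+ROSI mice lay below the cHF+ROSI mean and 6 lay below the lowest cHF+ROSI mouse. The difference was -0.48 (adjusted p = 0.0275 in limma, exact permutation p = 0.000466), and it was -0.48 without replicate 2. Hspa1l did not follow Hspa1a across mice, with r = 0.09 and rho = 0.15 (permutation p = 0.794 and 0.576, adjusted p 0.903), 0.08 with slide removed and 0.33 without the 2 farthest mice. The call was lost, with adjusted p between 0.0522 and 0.11, in 18 of 36 alternatives, of which 8 only left out a single mouse, so it depended on single mice as well as on how the arrays were normalized and tested.

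Hspb7, a small heat shock protein of heart and skeletal muscle, had the largest difference of the 6. It ran from -1.65 to -0.05 among the cHF+ROSI mice (median -0.54) and from -2.26 to -0.62 among the cHF+F+ROSI mice (median -1.08), and the groups overlapped. The difference was -0.64 (limma p = 0.0158, adjusted p = 0.367, exact permutation p = 0.0336), and the second Hspb7 probe had -0.55. Replicate 2 was the lowest mouse, and without it the difference was -0.50 (limma p = 0.0356, exact permutation p = 0.0659). Over 16 mice, Hspb7 had r = -0.66 with the mean of the 6 adipocyte markers, which ran from -1.06 to 0.47 with cHF+ROSI and from -1.47 to 1.15 with cHF+F+ROSI, and r = 0.60 with the slow fibre mean. Replicate 2, the lowest mouse for Hspb7, was also the lowest for the slow fibre mean (-2.12), and neither r is given without it. These r are descriptions, and the part of fat or slow fibres in the difference was not tested. Hspb7 and Cryab had r = 0.69 and rho = 0.60 (permutation p = 0.00392 and 0.0151, adjusted p 0.776), 0.74 with slide removed, 0.47 without the 2 farthest mice and 0.75 without replicate 2.

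The other 4 were Ptges3 (-0.16), the p23 cochaperone of Hsp90, Cct7 (-0.11), a subunit of the cytosolic chaperonin, Dnajb4 (-0.25), an Hsp40, and Hspa2 (-0.22), an Hsp70, with adjusted p between 0.361 and 0.474. Dnajb4 followed Hspa1a at r = 0.85 and rho = 0.80 (permutation p = 3e-05 and 0.00017, adjusted p 0.0142), 0.87 with slide removed and 0.79 without the 2 farthest mice. Without replicate 2 its adjusted p was 0.273. Hsp90aa1, the inducible cytosolic Hsp90, differed by only -0.11 between the diets (adjusted p = 0.90) but followed Hspa1a at r = 0.78 and rho = 0.81 (permutation p = 3e-05 and 0.00018, adjusted p 0.0271). With slide removed that r was 0.83, and without the 2 farthest mice and without replicate 2 it was 0.81, but without replicate 2 the adjusted p was 0.242 and the call was lost. Bag3 had r = 0.40 and rho = 0.46 with Hspa1a (permutation p = 0.0556 and 0.0528, adjusted p 0.398), 0.56 both with slide removed and without the 2 farthest mice. Hspe1, the Hsp10 partner of Hspd1, differed by 0.064 between the diets (adjusted p = 0.748). Its relation with Hspd1 did not pass, with r = -0.08 and rho = 0.05 (permutation p = 0.768 and 0.852, adjusted p 0.94), 0.04 with slide removed and 0.15 without the 2 farthest mice. Without replicate 2 r turned to 0.40 (permutation p = 0.206). Hspe1 is transcribed from the same region as Hspd1 in the opposite direction and its window holds the same number of 3-unit matches, 2.

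**Figure D5:**
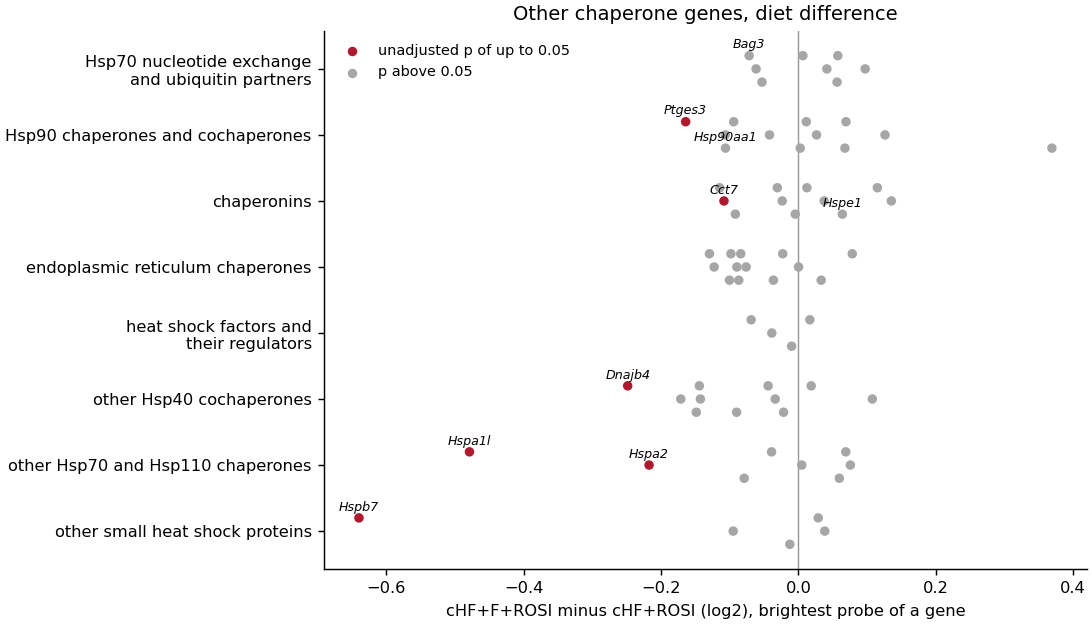
Difference of cHF+F+ROSI from cHF+ROSI in log2 units (x axis) for the brightest probe of 72 other chaperone genes in 8 lists (y axis), with genes at an unadjusted p at or under 0.05 in red. All 6 red points lie below 0, from -0.64 for Hspb7 to -0.11 for Cct7.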

How the data were processed

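RNA of gastrocnemius from 16 mice was measured on 16 two-channel Agilent arrays. The authors deposited, per the file headers, Feature Extraction spot intensities, joined from scans at 2 laser powers, and their own normalized log2 values. The submitters' processing notes give version 10.5.5.1 of Feature Extraction, whereas the supporting text of the paper names another version. From the median intensities, background was corrected by normexp (offset 50), with its parameters fitted on spots at or above their local background, since up to 22 spots far below background distorted the fit on 3 arrays when all spots were used. This was chosen after the data were seen. Controls were dropped, spots kept where each channel reached 2 times its background on average, flagged spots left out, ratios normalized by loess, and spots of a probe averaged. Groups, and co-variation with the group as a term, were fitted in R 4.3.3 by limma 3.58.1, and p was adjusted by Benjamini-Hochberg over 19398 probes or over all other probes. Means and intervals come from these fits, and precision is limited by the number of arrays. A gene with several probes was taken by the brightest. Named were all members, other chaperones with an unadjusted p at or under 0.05, 7 chosen genes, and the 5 genes most like Hspa1a, Hspd1 and Cryab. The members and lists were chosen with earlier results of these data known. Exact and sampled permutations used Python 3.11.15. The steps were tested on simulated data. Probe positions are from the files, promoters and updated symbols from RefSeq. Alternatives covered background, normalization, filters, blocks, weights, the methods' t-test, the authors' table and each mouse left out.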

Additional observations from a re-analysis of the deposited data

Results flagged for a closer look

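In 9 of 50 groups of 8 values the highest or lowest mouse stood apart from the rest by Dixon's ratio, where about 2.5 would be flagged by chance at 1 in 20. In cHF+F+ROSI replicate 2 this was so for Hspa1a (3.85, next 0.51), Dnajb1 (2.35, next 0.11), Hspb8 (0.24, next -0.21) and Hspe1 (0.32, next 0.10), all at the upper end. In the same mouse the mean log2 ratio of the slow fibre genes was the lowest of its group (-2.12, next -0.55), and that of the immediate early genes the highest (1.23, next 0.09). The flags of this mouse are not independent, since these genes vary together. In cHF+ROSI replicate 6, Rbm3 was lowest (-0.60, next -0.05), as was the mean of Cirbp and Rbm3 (-0.49, next -0.03). In cHF+ROSI replicate 7, Hspa2 was lowest (-0.33, next -0.08). What set these mice apart was not tested.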

How the results depend on the processing

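All 16 leave-one-out fits and the other alternatives gave 0 member probes with an adjusted p under 0.05. At an unadjusted p at or under 0.05 the main count was 0. It was 1 with scale normalization, with slide as a block and with the replicate number as a block, 3 by exact permutation of ranks, 8 with array quality weights, and 0 to 7 with 1 mouse left out. The 7 came without cHF+F+ROSI replicate 2. Without this mouse, 7 were also found without background correction, on Feature Extraction's processed signals, with slide as a block and with normexp fitted on all spots, and 8 with median centring. The count of other chaperones at that p, 6, was 3 with median centring, with Cy5 alone and in the authors' table, and 5 to 9 with 1 mouse left out. The call of Hspa1l was lost, leaving 0, with median centring (with and without replicate 2), Cy5 alone, normexp fitted on all spots (likewise both), slide as a block (likewise both), the replicate block, the methods' t-test and the authors' table. With 1 mouse left out the count was 0 to 1. The count of called pairs, 3, was 1 with scale normalization, slide as a block, the replicate block (with Dnajb1 as the anchor, adjusted p = 0.0446) or the slow fibre mean as a covariate, each time Hspa1a with Dnajb1. It was 0 without the 2 farthest mice or in cHF+ROSI mice alone, 6 in cHF+F+ROSI mice alone (replicate 2 included), 7 with Cy5 alone, and 1 to 4 with 1 mouse left out. Without replicate 2 the 1 pair was Hspa1a with Hsph1, and 0 of the 3 were called. The replicate numbers do not pair the mice (same-number r -0.25 to 0.34, none of 8 best with its own number).

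Differences that changed sign were close to 0 and above an unadjusted p of 0.05. Hspb8 (0.016) was -0.11 with array weights and -0.064 to 0.053 with 1 mouse left out. Without replicate 2 it was -0.062 with normexp fitted on all spots, -0.064 with no background correction, -0.043 on processed signals, -0.019 with median centring and -0.059 with slide as a block. Array weights gave -0.038 for Hspb6, and Cy5 alone -0.022 for Hsph1. The Hsf1 log2 difference (-0.0099) was 0.034 with median centring, 0.011 with scale normalization, 0.0099 with array weights, 0.019 with the mean of its probes and 0.052 in the authors' table. Without replicate 2 it was 0.00091 with no background correction, 0.038 with median centring and 0.011 with slide as a block, and it lay between -0.032 and 0.018 with 1 mouse left out. Cirbp (0.0031) was -0.022 with scale normalization and -0.0026 with normexp fitted on all spots. Without replicate 2 it was -0.019 in that fit, -0.014 with no background correction and -0.0054 on processed signals. With 1 mouse left out it lay between -0.060 and 0.081, Rbm3 between -0.022 and 0.14 and Hsp90aa1 between -0.22 and 0.044.

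The r of Hspa1a and Hspa8 (0.068) was -0.094 with Cy5 alone, -0.029 with the mean of all probes of a gene, -0.074 in cHF+F+ROSI mice alone, and -0.058 to 0.71 with 1 mouse left out. That of Hspa1a and Hspd1 (-0.27) was 0.013 with Cy5 alone, 0.48 without the 2 farthest mice, 0.58 in cHF+ROSI mice alone, 0.22 with the slow fibre mean as a covariate, and -0.45 to 0.47 with 1 mouse left out. That of Hspa1a and Cryab (0.16) was -0.083 in cHF+F+ROSI mice alone and -0.013 to 0.44 with 1 mouse left out, and that of Hspa8 and Hspd1 (0.60) was -0.12 with Cy5 alone. That of Hspa1a and Hsph1 (0.65) kept its sign but fell to 0.18 with Cy5 alone. The causes of these shifts were not tested. The settings that join another choice with leaving out replicate 2, the test on ranks and normexp on all spots were added after the data were seen. The authors' table was not run for co-variation, since its cHF+F+ROSI columns could not be matched to mice, nor were array weights. Ratios of dim probes are limited by the weak Cy3 signal, 1.78 to 2.02 times background.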
